A study of Mus musculus with 4 samples.

Results

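The cytosolic ribosome is built from ribosomal RNA and a fixed set of proteins, encoded by the Rpl and Rplp genes for the large subunit and the Rps genes for the small subunit. The genes with symbols in Rpl, Rps or Rplp followed by a number, and by no suffix or one of a, x, y, l, al and l1, were taken from the deposited tables. The rule found 84 of 40999 listed features. Of these, 75 are core genes, 46 of the large and 29 of the small subunit. The other 9 are paralogs with names ending in l or l1 (Rpl22l1, Rps4l, Rps12l1, Rps27l, Rpl10l, Rpl36al, Rpl39l, Rpl3l and Rpl7l1), and they were set beside the core gene each is named after. The symbol pattern does not take in genes such as Rpsa, Rps3a1 and Fau, which also encode ribosomal proteins and are described apart. GENCODE M21 annotates Rps12l1 as a processed pseudogene and Rps4l as a transcribed processed pseudogene, so the name rule does not guarantee a protein product.

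Total RNA came from gonads of wild-type C57BL/6J embryos on 4 successive days, E11.5 to E14.5, with no treatment or mutation in any group. XX and XY gonads were pooled, and the study's methods give only a minimum number per sex for each pool. Each of the 4 time points gave 1 library from 1 pool of animals, so neither sex nor animal can be separated, and there is no replicate check. The E11.5 pool was whole genital ridge with its mesonephros, the embryonic kidney beside the gonad, which was removed at the later time points. Library totals ranged from 25593453 to 31752562 counts, and 3 counts, the limit that a count of 0 allows, are at most 0.117 CPM, counts scaled to the library total. From E11.5 to E14.5 the ribosomal RNA genes held 17.8%, 8.90%, 8.73% and 48.9% of the counts, so the E14.5 library stands apart. Of the somatic gonad genes, such as Nr5a1 and Wt1, 7 of 7 had counts in every library. The 7 nephric genes did too, so presence alone does not check the gonad label. The somatic gonad genes summed to 20318, 39101, 45327 and 20679 counts in order of age. Germ cell markers, 9 genes such as Dazl and Ddx4, summed to 585, 9174, 15621 and 6878 counts in order of age. Of these, Stra8, the meiotic entry gene, was at 0 in the first library, and no marker was at 0 in the others. The 7 nephric genes summed to 4882 counts at E11.5 and to 781, 708 and 450 thereafter.

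As background, the core genes are transcribed at a high rate in every growing cell, since each ribosome needs 1 copy of nearly every protein. Their messages usually begin with a C followed by a run of pyrimidines, the TOP element, through which their translation is controlled together. Several core genes lie on the X chromosome, which is silenced in male meiosis. Retrotransposed copies on autosomes are known to be used in the germ line, and RPL10L stands in for RPL10 during spermatogenesis. In these files Rpl10, Rpl39, Rps4x and Rpl36a are the 4 X-linked core genes, and Rpl10l, Rpl39l, Rps4l and Rpl36al are autosomal genes named after them.

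The sequence around the transcription start shows the pyrimidine run that many core genes share. RefSeq promoter windows (GRCm38.p6, 250 bases before to 50 after a start) matched 62 members, 55 core genes and 7 paralogs. The 30-base windows printed here have 15 bases before the annotated start and 15 from it, 5′ to 3′, and capitals mark the longest run of at least 5 C or T bases. The core genes shown are those of the 5 highest and 5 lowest by mean TPM, a level corrected for length, that have a window, followed by the remaining X-linked core genes and the autosomal paralogs of X-linked genes.
Rps26 (chr10:128626492-128626521, minus strand): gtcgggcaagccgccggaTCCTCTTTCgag
Rpl39 (chrX:37085208-37085237, minus strand): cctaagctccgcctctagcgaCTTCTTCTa
Rpl15 (chr14:18270972-18271001, minus strand): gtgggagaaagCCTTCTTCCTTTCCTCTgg
Rpl22 (chr4:152325711-152325740, plus strand): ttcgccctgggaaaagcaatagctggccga
Rpl18 (chr7:45718056-45718085, plus strand): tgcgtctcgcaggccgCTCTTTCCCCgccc
Rps15a (chr7:118116133-118116162, minus strand): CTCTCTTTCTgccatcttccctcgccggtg
Rpl10 (chrX:74270801-74270830, plus strand): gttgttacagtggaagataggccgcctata
Rps4x (chrX:102189377-102189406, minus strand): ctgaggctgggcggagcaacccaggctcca
Rpl36a (chrX:134585639-134585668, plus strand): gtgcacccaggcaccgcctataaaCTTCCg
Rpl10l (chr12:66284387-66284416, minus strand): tttggCCTCCattttgcggctggcggtggg
Rpl39l (chr16:10170213-10170242, plus strand): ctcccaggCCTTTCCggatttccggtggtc
Rpl36al (chr12:69184053-69184082, minus strand): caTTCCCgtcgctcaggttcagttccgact

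A run of at least 5 C or T bases that begins with C within 10 bases of the start was present in 55.4% of the 65 core windows and in 30.7% of all 32851 windows of the table. It was also present in 5 of 9 paralog windows, those of Rpl10l, Rpl22l1, Rpl39l, Rpl3l and Rps27l, so it is not particular to the core genes. Rpl22, Rpl10 and Rps4x have no capitalised run in the printed window. The window of Rpl22 lies inside the deposited gene, which begins at 152324436. That of Rps4x lies outside the deposited gene, which ends at 102189306 on the side of its start. For these genes the missing run describes the annotated start used here only. The letters CCGGAAG, the core of the site bound by ETS family factors, were found on either strand in 35.4% of core windows and 8.86% of all windows. GATGGC, the core of the YY1 site, was found on either strand in 26.2% and 14.1%. TATAAA in the 50 bases before the start was found in 0 of the 65 core windows and in 2.63% of all. The pyrimidine run can overlap the reverse complement of CCGGAAG, and a match is a description of the sequence only. Of 9 paralog windows 2 held CCGGAAG on either strand, those of Rpl39l and Rps27l. Rpl39l is thus a paralog with a low level that carries the same letters as core genes. The CCGGAAG windows of the abundant gene Rps26, of Rpl15 and of the germ line paralog Rpl39l are printed here. Capitals mark the motif, or its reverse complement CTTCCGG.
Rps26 (chr10:128626702-128626731, minus strand): ttaatcttccgCCGGAAGgttaaatagttc
Rpl15 (chr14:18271030-18271059, minus strand): acaatgccccaCCGGAAGgagggtcgccgg
Rpl39l (chr16:10170125-10170154, plus strand): atttgccgtacCCGGAAGcgctggaagcta

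The first question was whether the core set moved while the gonad differentiated. It moved very little: after TMM scaling the median log2 fold change of the 75 core genes was 0.05, 0.03 and 0.03 when each of E12.5, E13.5 and E14.5 was set against the day before. The medians of all features tested were -0.0041, 0.0017 and 0.0051. A gene was called at |log2 fold change| ≥ 1 and FDR ≤ 0.05 in edgeR's exact test with the biological coefficient of variation preset to 0.1, which compares 2 libraries and not the time points. No core gene was called in any of the 3 comparisons, and 0 of 75 had an unadjusted p under 0.05 in any of them. Among all features tested, 14.3%, 1.88% and 4.87% were called in the 3 comparisons, against 2, 0 and 0 of the 83 members tested. The 2 called members were Rpl10l and Rpl39l. Fewer calls fell on the 3418 features with at least 1000 counts in every library, a set that includes every core gene. Of these, 83 were called up and 48 down at E12.5, 4 and 3 at E13.5, and 65 and 1 at E14.5. Beside such features, 0 core genes called says little at E13.5 and E14.5. The result at E14.5 rests on the scaling: with total counts in place of TMM, 68 members were called, all lower, beside 60% of all features, and the core median was -1.05 against -1.07 for all features. Rpl3l had 2, 3, 2 and 5 counts and was not tested.

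A smaller change was also counted, of at least 0.5 on the log2 scale with an exact 95% counting interval that leaves out 0. At E12.5 3 members passed it upward and 0 downward, beside 13.7% and 14.4% of all features. At E13.5 0 passed upward and 2 downward, beside 6.24% and 4.11%. At E14.5 2 passed upward and 0 downward, beside 9.85% and 3.81%. All of them were paralogs, and no core gene passed in either direction. Of the 3418 features with at least 1000 counts in every library, 321 passed upward and 196 downward at E12.5. At E13.5 38 and 33 of them passed, and at E14.5 120 and 31. Intervals and limits here cover counting error only.

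The narrow spread of the core genes was compared with that of all well-counted features, a set that includes the core genes. The robust SD of their log2 fold changes, taken from the median absolute deviation, was 0.069, 0.078 and 0.058 in the 3 comparisons. For the 3418 features with at least 1000 counts in every library it was 0.251, 0.128 and 0.145. The 242 of these that are at most 1200 bases long, which are nearer to ribosomal protein genes in length, gave 0.191, 0.204 and 0.147. They include the core genes of that length, so neither set is separate from the core genes. Within 0.25 log2 units of 0 lay 74, 74 and 75 of the 75 core genes, against 64.3%, 89.4% and 85.1% of the high-count features. The large and small subunits moved alike, with medians of 0.06 and 0.05 in the first comparison, 0.03 and 0.03 in the second, and 0.02 and 0.05 in the last. These are descriptions without a test, since genes of 1 library are not replicates.

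**Figure D1:**
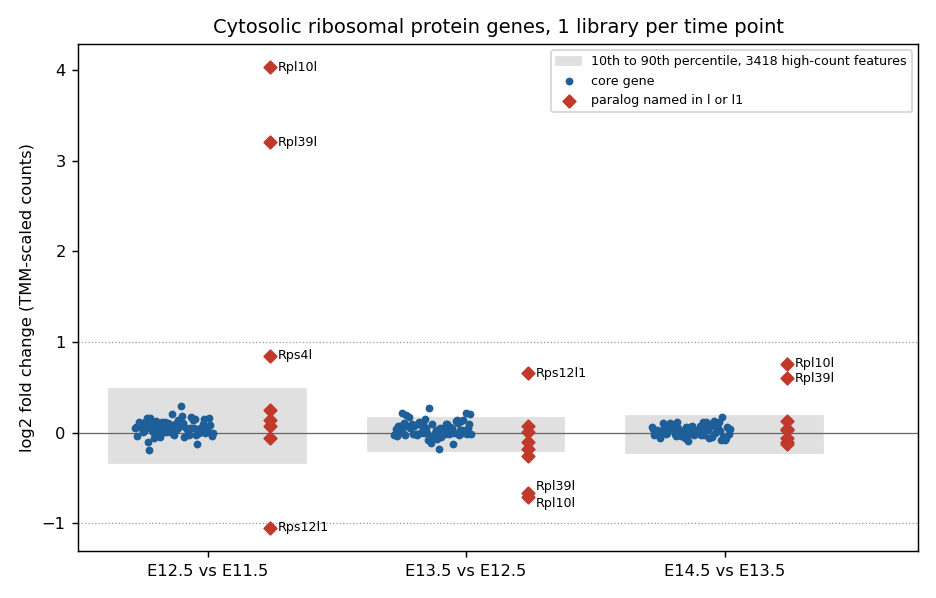
Log2 fold change of TMM-scaled counts for core genes (blue points, in order of symbol) and paralogs (red diamonds) in the 3 comparisons of consecutive libraries. Grey bands span the 10th to 90th percentile of the 3418 high-count features and dotted lines mark a log2 fold change of 1 in size. Core genes lie near 0, between -0.20 and 0.29, while Rpl10l and Rpl39l stand at 4.04 and 3.21 at E12.5.

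The core genes farthest from 0 can still be named. At E12.5 the highest were Rplp1 at 0.29 (95% counting interval 0.25 to 0.33), Rpl4 at 0.20 and Rplp2 at 0.18. RPLP1 and RPLP2 are the acidic proteins of the ribosomal stalk, which recruits translation factors. The lowest were Rpl22 at -0.20 (-0.25 to -0.14), Rps21 at -0.13 and Rpl21 at -0.10. RPL22 binds RNA outside the ribosome as well and is known to hold down the message of its own paralog Rpl22l1. At E13.5 the highest were Rpl39 at 0.27 (0.22 to 0.31), Rps4x at 0.22 and Rpl17 at 0.22, and the lowest were Rplp0 at -0.18 (-0.21 to -0.15), Rps2 at -0.12 and Rpl41 at -0.12. RPLP0 is the base of the same stalk, and RPL39 lines the tunnel through which the new protein leaves. At E14.5 the highest were Rps29 at 0.17 (0.11 to 0.23), Rps21 at 0.13 and Rps15 at 0.12, and the lowest were Rpl39 at -0.09, Rps4x at -0.08 and Rps28 at -0.08. None of these passed either rule.

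X-linked core genes differed a little from the autosomal ones in the later comparisons. At E13.5 their median was 0.18, against 0.03 for the 71 autosomal core genes. Rpl39, Rps4x and Rpl36a gave 0.27, 0.22 and 0.15, but Rpl10 gave -0.03. At E14.5 the median of the 4 was -0.05 against 0.03, with 1 of 4 above 0 against 47 of 71, and at E12.5 it was 0.02 against 0.06. All of these differences are below the smaller rule, and no test was made of them.

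The share of each library on ribosomal protein genes depended on what else was in the library. The 84 genes held 1.825% of all E11.5 counts (1.820% to 1.830% by Wilson's 95% interval), 2.138% and 2.221% on the 2 following days, and 1.068% of all E14.5 counts (1.065% to 1.072%). The E14.5 value was the lowest by far, in the library in which rRNA took 48.9% of the counts. Without the 42 features that are rRNA genes or among the most abundant, the shares were 2.424%, 2.540%, 2.620% and 2.555%. Of the counts on protein-coding genes, members of that class held 2.589%, 2.709%, 2.791% and 2.543%. Without rRNA the E14.5 share lay among those of the other libraries, and among protein-coding counts it was the lowest by a small margin. The drop at E14.5 was thus seen over all counts, rRNA included, and was not seen at that size over either smaller total.

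**Figure D2:**
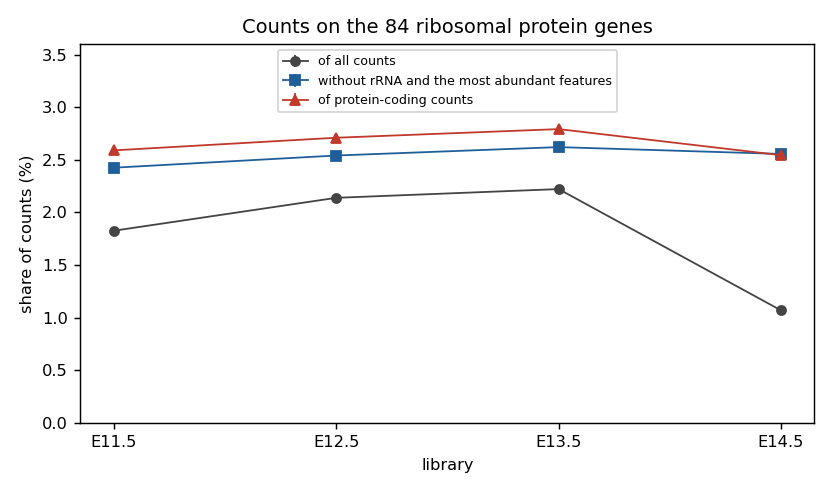
Share of counts (%) on the 84 ribosomal protein genes in each library, of all counts (circles), without rRNA genes and the most abundant features (squares) and of protein-coding counts (triangles). Bars for the 95% Wilson interval are smaller than the points. The share of all counts fell to 1.07% at E14.5, whereas the other 2 shares stayed between 2.42% and 2.79%.

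Levels per length were read from the deposited TPM, which the authors derived by dividing counts by exon length and by the library's sum. The median core gene stood at 374.3, 485.5, 535.9 and 177.0 TPM in order of age, the last again in the library rich in rRNA. Rplp1 was the highest in every library, with 1035, 1543, 1747 and 561 TPM. It was followed by Rps26 (mean 962 TPM), Rps20 (870 TPM), Rpl32 (856 TPM) and Rpl39 (773 TPM). Rps15a was the lowest in every library, with 78.1, 98.2, 108 and 36.2 TPM. Above it came Rpl18 (mean 100.3 TPM), Rpl21 (102 TPM), Rpl22 (103 TPM) and Rpl15 (118 TPM). The highest exceeded the lowest 13.3-fold at E11.5 and between 15.5-fold and 16.1-fold later.

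**Figure D3:**
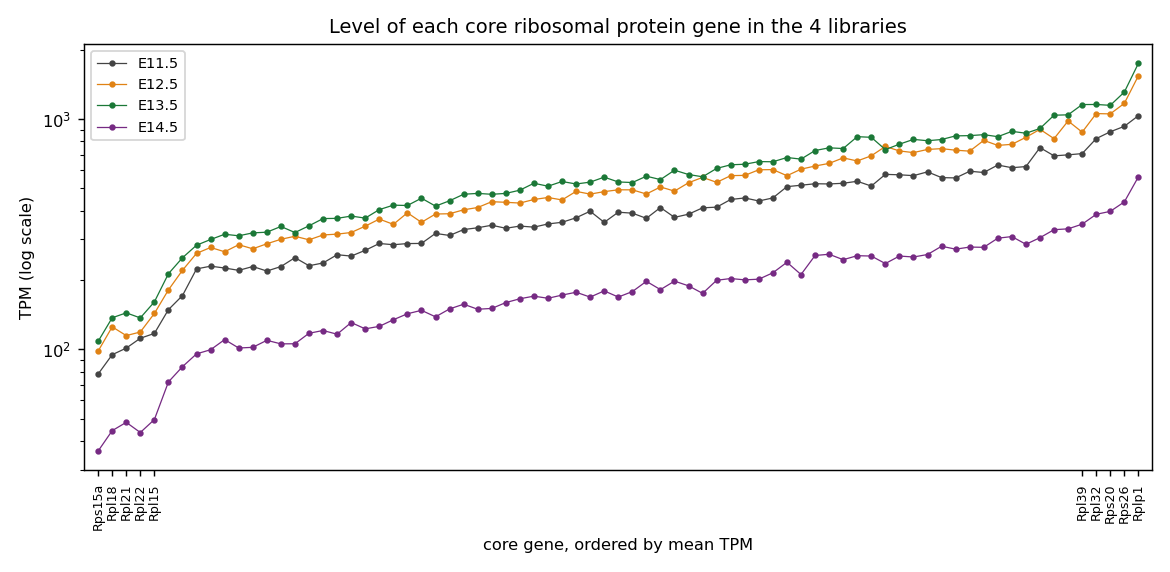
TPM (log axis) of the 75 core genes in the 4 libraries, ordered by mean TPM, with the 5 lowest and the 5 highest named on the axis. The lines run almost parallel, from Rps15a (36.2 to 108 TPM) to Rplp1 (561 to 1747 TPM), and the E14.5 line lies lowest for every gene.

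The order of the core genes hardly changed from library to library. Across the 75 genes, Spearman's rho of TPM between 2 libraries ranged from 0.987 to 0.995, a description over genes that share the same exon lengths and are not replicates. When each gene's TPM was divided by the median core gene of its library, the ratio of each of the 75 genes spanned 1.22-fold or less over the 4 libraries. The median span was 1.08-fold, and the widest was that of Rpl22, from 0.30 of the median gene at E11.5 to 0.24 at E12.5. Rpl39 followed with 1.20-fold and Rpl41 with 1.18-fold. Rpl13a was the steadiest, at 1.41, 1.40, 1.39 and 1.39 times the median gene, a span of 1.02-fold.

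The order between genes, unlike its constancy, rested on the length used. TPM and deposited exon length had a Spearman's rho of -0.60 over the 75 genes, while counts and length had 0.38. Rps15a is given an exon length of 5136 bases, Rpl18 2983, Rpl22 2497, Rpl21 2403 and Rpl15 2015, against 468 for Rplp1. With the shortest GENCODE principal transcript of each gene as length instead, Rplp1 stayed the highest, at a mean of 2.47 times the median gene. Rps15a then stood at 1.39 times the median gene, with a transcript of 640 bases, and Rpl18 at 0.95. Rps20, among the highest by TPM, became the lowest at 0.26, because its transcript there has 3706 bases and its deposited exon length is 502. Of the 5 highest genes by TPM, Rplp1 and Rpl32 were also among the 5 highest on this scale, and Rps26, Rps20 and Rpl39 were not.

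Reads of these genes may also belong to copies elsewhere. Of the 50-base words in the transcript used, a median of 55.5% per core gene occurred in a transcript of another gene, and 45 of 75 core genes shared over 50%. Rps27 shared 98.7%, mostly with its copy Rps27rt, and Rpl10 92.1%, mostly with a pseudogene. The 182 listed pseudogene features named after members had 7.04%, 7.37%, 7.15% and 7.07% as many counts as the members, a nearly constant proportion. The study describes its genes as identified from uniquely mapped reads, and the counting settings for reads with several positions are not given in the sources used here. Counts of single core genes are therefore uncertain in level.

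The paralogs were less uniform than the core genes, with 4, 4 and 6 of the 8 tested within 0.25 log2 units of 0 in the 3 comparisons. Rpl10l (chr12:66283379-66284401, minus strand, mm10), a retrotransposed copy known from male germ cells, had 8, 122, 94 and 75 counts from E11.5 to E14.5. It was nearly absent from the first library and present in each of the later ones. It rose at E12.5 by 4.04 on the log2 scale (3.03 to 5.30), a 16.4-fold change that passed the call. At E13.5 its log2 fold change was -0.71 (-1.12 to -0.31) and at E14.5 0.76 (0.31 to 1.22), both past the smaller rule only.

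Rpl39l (chr16:10170198-10174911, plus strand), known from spermatogenic cells, where its protein replaces RPL39 at the exit tunnel, had 22, 187, 149 and 106 counts. It rose at E12.5 by 3.21 (2.57 to 3.92), a 9.24-fold change that passed the call. Its values at E13.5 and E14.5 were -0.66 (-0.99 to -0.35) and 0.60 (0.23 to 0.97), both past the smaller rule only. The values of the later comparisons share the E13.5 library, where both genes were lower. With total counts in place of TMM, the E14.5 values became -0.32 for Rpl10l and -0.48 for Rpl39l, so their direction there rests on the scaling.

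Ratios to the X-linked core gene of the same library need no scaling, but a change in that core gene moves them too. At E13.5 Rpl39 itself gave 0.27 on the log2 scale, which lowers the ratio of Rpl39l there, and Rpl10 gave -0.03. Rpl10l had 1.16 counts per 1000 counts of Rpl10 at E11.5 (0.501 to 2.29), 18.7 at E12.5 (15.5 to 22.3), 11.6 at E13.5 (9.36 to 14.2) and 18.9 at E14.5 (14.8 to 23.7). Rpl39l had 3.55 per 1000 counts of Rpl39 (2.22 to 5.38), then 32.4 (27.9 to 37.5), 17.0 (14.4 to 19.98) and 27.4 (22.4 to 33.2). For both pairs the intervals at E11.5 and E13.5 overlapped neither each other nor those at E12.5 and E14.5, whose intervals overlapped. Per length, both paralogs remained minor, at no more than 1.47% of the TPM of Rpl10 and 1.49% of the TPM of Rpl39. Rpl39l shared 0% of its 50-base words with other transcripts and Rpl10l 7.60%.

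Germ cell markers moved in the same libraries. At E12.5 7 of the 8 markers tested were called up, including Dazl by 6.55 and Ddx4 by 4.28 on the log2 scale, while Nanos3 gave -0.50. Per 1000 summed germ cell marker counts, Rpl10l had 13.7 counts at E11.5 (5.88 to 27.1), 13.3 at E12.5 (11.03 to 15.9), 6.02 at E13.5 (4.86 to 7.37) and 10.9 at E14.5 (8.57 to 13.7). Rpl39l had 37.6 (23.4 to 57.5), 20.4 (17.5 to 23.6), 9.54 (8.06 to 11.2) and 15.4 (12.6 to 18.7). For Rpl10l the ratio to the summed markers was nearly the same at E11.5 and E12.5, with a wide interval at E11.5. For Rpl39l it was lower at E12.5, 20.4 against 37.6, and the intervals overlapped only at their ends. Overlapping intervals do not show that ratios are equal, and the difference was not tested. Both ratios were lowest at E13.5. The mix of the summed markers changed as well. Dazl had 53 counts at E11.5 and 4555 at E12.5, and Pou5f1 had 138 and 1058. The size and direction of the change in both ratios from E11.5 to E12.5 therefore depend on which markers are summed. In these bulk samples more germ cells and more RNA per germ cell cannot be told apart. The mesonephros was in the E11.5 pool only, with nephric markers at 207 CPM there and 26.3 to 36.3 CPM later, outside rRNA and the most abundant features, and its part in the E12.5 changes was not tested.

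Rps4l (chr6:148354656-148355596, plus strand) had 1241, 2045, 2157 and 1044 counts. Its log2 fold change at E12.5 was 0.85 (0.75 to 0.95), which passed the smaller rule, and with total counts in place of TMM it was 1.01 and past the call. It gave -0.26 at E13.5 and 0.04 at E14.5. Per 1000 counts of Rps4x it had 118 at E11.5 (111 to 125), 211 at E12.5 (201 to 221), 151 at E13.5 (144 to 158) and 165 at E14.5 (154 to 176). Rps4x itself gave 0.22 at E13.5, which lowers the ratio there. Of the 50-base words of Rps4l 17.97% occurred elsewhere, mostly in Rps4l-ps. Rpl36al (chr12:69182734-69184067, minus strand), the fourth autosomal gene named after an X-linked one, did not share this pattern. It had 1158, 1114, 1414 and 639 counts and log2 fold changes of 0.07, 0.01 and -0.06. Its ratio of 375, 391, 356 and 346 per 1000 counts of Rpl36a had overlapping intervals in every pair of neighbouring libraries, although 63.3% of its words are shared. So of the 4 autosomal genes named after X-linked ones, 3 passed the smaller rule upward at E12.5 and Rpl36al did not. Of all features tested, 13.7% passed it upward there. Rps4l, 1 of the 3, is annotated as a transcribed processed pseudogene, and no test was made over these few genes.

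The remaining paralogs are named after autosomal core genes and passed neither rule. Rpl22l1 had 1774, 1787, 2372 and 1220 counts, with log2 fold changes of 0.14, 0.07 and 0.13. Its ratio to Rpl22 was 287 per 1000 at E11.5 (272 to 302), 361 at E12.5 (342 to 381), 361 at E13.5 and 400 at E14.5 (374 to 428). Per length it stood higher, at 127.7%, 161%, 160.9% and 178.3% of the TPM of Rpl22, whose deposited exon length is 2497 bases. Of the 50-base words of Rpl22l1 57.3% occurred elsewhere. In this pair the core gene had the lowest log2 fold change of the core set at E12.5, -0.20, and the paralog gave 0.14. Rps27l, a p53 target gene, had 1216, 1320, 1552 and 678 counts and 257, 291, 249 and 213 per 1000 counts of Rps27. Rpl7l1 had 2103, 1840, 2057 and 983 counts and 172, 160, 142 and 145 per 1000 counts of Rpl7. Rpl3l, known from heart and skeletal muscle, had 2, 3, 2 and 5 counts beside 11835, 11252, 13967 and 6513 of Rpl3. It was at or near the limit of 3 counts, in libraries where striated muscle markers summed to only 147 to 305 counts. Rps12l1 had 16, 7, 14 and 6 counts, and its log2 fold changes of -1.05, 0.65 and -0.13 all had intervals that include 0. Since 100% of its 50-base words occur in other transcripts, most in Rps12, its few counts may include reads of Rps12, which was not tested.

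**Figure D4:**
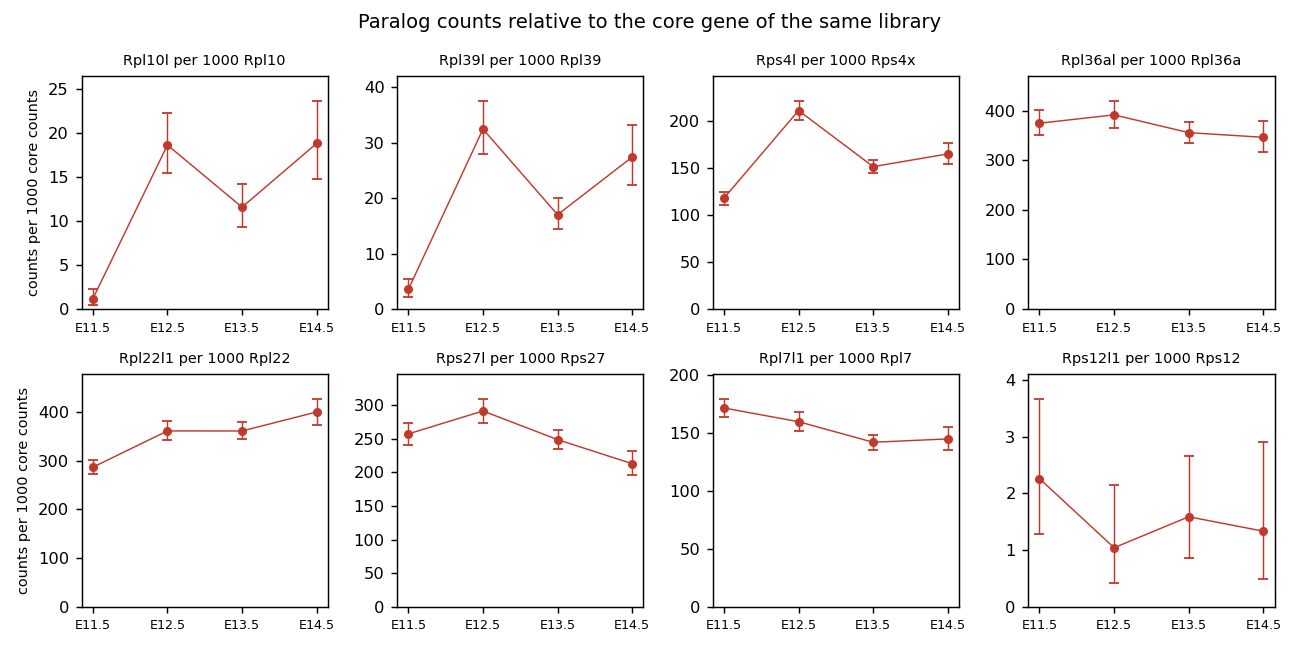
Counts of 8 paralogs per 1000 counts of the core gene each is named after, in the same library, with exact 95% counting intervals. Each panel has its own axis from 0. Rpl10l climbs from 1.16 to 18.7 and Rpl39l from 3.55 to 32.4 between E11.5 and E12.5 and both dip at E13.5, while Rpl36al stays between 346 and 391.

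Genes that work with the ribosomal proteins were described from lists chosen with earlier results known. Of all features tested, 14.3%, 1.88% and 4.87% were called in the 3 comparisons. A count of 0 called in a short list, here and below, therefore says little at E13.5 and E14.5. Of the ribosomal protein genes outside the symbol pattern, Rpsa gave log2 fold changes of 0.11, -0.02 and 0.03 in the 3 comparisons, Rps3a1 0.04, 0.06 and 0.02, and Fau -0.02, -0.02 and 0.07, and none of these was called. Of 12 translation factors with TOP messages, such as Eef1a1 and Eef2, 0 were called, with medians of 0.05, -0.04 and 0.01 in the 3 comparisons. Eef1a1 gave -0.04, -0.0024 and 0.03. Their robust SDs of 0.027, 0.040 and 0.028 were below those of the core genes, without a test, but Eif3f gave 0.50 at E12.5 (0.47 to 0.52), farther from 0 than any core gene and just short of the smaller rule.

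Ribosome assembly factors were a little less steady. Of 32 tested, 0 were called in any comparison, and the medians were 0.14, -0.14 and -0.07. Mdn1, the large ATPase that strips factors from the pre-60S particle, gave 0.81 at E12.5 and was the only one past the smaller rule there, with 0 at E13.5 and E14.5. Nop58, a box C/D core protein, gave 0.23, 0.05 and -0.29, and Npm1 gave -0.05, -0.09 and -0.21. Among the 11 genes of RNA polymerase I and its initiation factors, which make rRNA, 0 were called. Polr1b, its second largest subunit, passed the smaller rule at E12.5 with 0.53 and was the only one to do so in any comparison. Rrn3, the factor that couples the polymerase to its promoter, gave 0.32, -0.12 and -0.44. Ubtf gave 0.11, 0.03 and 0.05. Their medians were 0.11, -0.02 and -0.10.

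Other large complexes were set beside the ribosome. None of the 20 proteasome subunits was called or passed the smaller rule, with medians of 0.05, -0.16 and -0.05. None of the 76 mitochondrial ribosomal protein genes was called, and their medians were 0.04, -0.07 and 0.03. Mrps11 at 0.71 and Mrps28 at 0.51, both at E12.5, were those past the smaller rule, and they are named after their values were seen. In the robust SD of log2 fold changes the mitochondrial set gave 0.141, 0.127 and 0.105 and the proteasome 0.080, 0.060 and 0.121, beside 0.069, 0.078 and 0.058 for the core genes. At E13.5 the proteasome subunits had the smaller spread, though their median lay lower, and in the other comparisons the core genes did.

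Small nucleolar RNAs (snoRNAs), which guide modification of rRNA, lie in the introns of many ribosomal protein genes and are cut from the same primary transcript. In these files 30 of them lie on the same strand inside 21 member genes. Their summed counts were 29309, 18798, 21002 and 30678 from the first to the last day. Set per count of the host gene in the same library, which needs no scaling, the snoRNAs were lower at E12.5 than at E11.5 in 30 of 30 cases, with a median log2 change of -0.82 (range -1.46 to -0.10). At E13.5 the median was -0.24, and 3 of 30 were higher. At E14.5 30 of 30 were higher, with a median of 1.67.

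Rpl13a, the steadiest core gene, hosts 4 of them. It had 11990, 11612, 14699 and 7063 counts. Snord33 in its intron (chr7:45126864-45126945) had 379, 170, 157 and 664 counts, a log2 change per host count of -1.11, -0.45 and 3.14. Snord34 (chr7:45126603-45126668) had 658, 311, 265 and 799 counts, with changes of -1.04, -0.57 and 2.65. Snord32a and Snord35a gave 2.57 and 2.26 at E14.5. The smallest change at E14.5 was that of Snord43 in Rpl3, 0.72, from 69 to 53 counts while Rpl3 went from 13967 to 6513. The size of the change therefore differed among snoRNAs, including snoRNAs of one host: in Rps3 Snord15b gave 2.18 at E14.5 and Snord15a 0.88.

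The snoRNAs inside ribosomal protein genes were also compared with those elsewhere. Per summed count of the core genes, the 30 had medians of -0.76, -0.25 and 1.66 in the 3 comparisons, and 82 small nucleolar and Cajal body RNAs elsewhere had -0.67, -0.23 and 1.46. At E14.5 80 of these 82 were higher. The rRNA share moved the same way, from 17.8% to 8.90% to 8.73% to 48.9% of counts, and its part in the snoRNA values was not tested. The host messages and their intronic snoRNAs thus took different courses in these 4 libraries, with no core gene outside -0.20 to 0.29 on the TMM-scaled log2 scale.

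**Figure D5:**
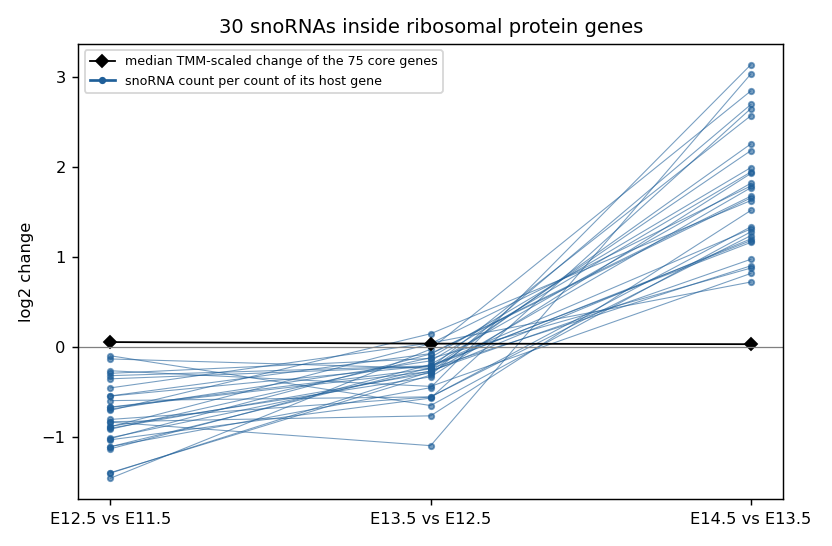
Log2 change of the count of each of 30 snoRNAs per count of its host gene (blue lines) between consecutive libraries, and the median TMM-scaled log2 fold change of the 75 core genes (black diamonds). The snoRNA ratios lie below 0 in 30 of 30 cases at E12.5 and above 0 in 30 of 30 at E14.5, while the core median stays between 0.03 and 0.05.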

How the data were processed

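The authors prepared UMI-tagged stranded libraries after rRNA depletion. Alignment to mm10 used STAR, duplicates were collapsed with UMI-tools, and featureCounts gave a read total for every gene. These deduplicated counts are the deposited counts used here. The deposited TPM are the authors' conversion of those counts by exon length, and their deposited RPKM were not used. The study describes uniquely mapped reads, and the annotation release and the counting settings for reads with several positions are not given in the sources used here.

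Samples were grouped by their labels, 1 library per time point. Each library was compared with the one before it in R 4.3.3 with edgeR 4.0.16, using filterByExpr, TMM and the exact test at a preset dispersion of 0.01, with Benjamini-Hochberg adjustment over all features tested and a prior count of 0.125. Log2 fold changes carry exact Clopper-Pearson counting intervals and shares carry Wilson intervals, both at 95%. The code was tested on simulated data. Alternatives were biological coefficients of variation of 0.2 and 0.4, size factors of DESeq2 1.42.0, total counts, other filters, a log2 threshold of 2, a prior count of 2, TPM ratios and other denominators of shares. Transcript words and principal transcripts came from GENCODE M21 and promoters from RefSeq GRCm38.p6, in Python 3.11.15 with pandas 2.3.3.

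Members and gene lists were chosen with earlier results of these data known. Named genes are all paralogs and their core genes, called members, the 3 highest and 3 lowest core log2 fold changes of each comparison, the 5 highest and 5 lowest core genes by mean TPM, and list members. Rpl13a, Rpl41, the copies of members, the snoRNAs and their other hosts were chosen after their values were seen. A few single results are not reported here.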

Additional observations from a re-analysis of the deposited data

How the results depend on the processing

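The 2 calls at E12.5 became 1 at a biological coefficient of variation of 0.4 (Rpl10l, while Rpl39l kept 3.21 on the log2 scale without passing) and 1 with at least 10 counts in both libraries (Rpl39l, since Rpl10l was not tested). Scaling by total counts raised the called members at E14.5 from 0 to 68, all lower, when 60% of all features were called and their median fell by 1.07 on the log2 scale. The smaller rule then held 0 members upward and 80 downward at E14.5. The core median under total counts was 0.21, 0.061 and -1.05 in the 3 comparisons, and by TPM ratios 0.34, 0.17 and -1.61. Relative to the median of all features under total counts, the core median stayed at 0.056, 0.033 and 0.023. Rps4l under total counts gave 1.01 at E12.5, past the call. At E14.5 the same scaling reversed 3 paralogs, Rpl10l to -0.32, Rpl39l to -0.48 and Rps4l to -1.04, the last of these past the call. Shares of the members without rRNA and the most abundant features were 2.42%, 2.54%, 2.62% and 2.56% from E11.5 to E14.5, of protein-coding counts, a setting added after seeing the data, 2.59%, 2.71%, 2.79% and 2.54%, and of summed TPM 3.16%, 4.03%, 4.53% and 1.48%. The other 94 recomputed values were fold changes and medians of the same sign and counts of the same size or nearly so. The smaller rule under other scalings, the other settings for single paralogs and the principal transcript lengths were likewise added after seeing the data. No replicate could be left out and no paired analysis was possible because each time point has 1 library. Every core gene had at least 1802 counts in each library, whereas Rpl10l, Rpl39l, Rps12l1 and Rpl3l had few at E11.5, and no value has a biological error.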
